A study of Mus musculus with 48 samples.

Results

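Rpl22l1, Rps27l, Rpl7l1 and Rpl36al are ribosomal protein-like paralogs, genes that stand beside the core ribosomal protein genes Rpl22, Rps27, Rpl7 and Rpl36a and encode related or identical proteins. The 4 paralogs were chosen by symbol, 4 of 50600 genes in the count data, and each symbol matched 1 Ensembl gene. All 4 passed the filter on low counts, as did their 4 core partners, among 13889 genes tested. The counts come from mPDAC cells, a mouse pancreatic ductal adenocarcinoma line whose labels give the genetic background FVB/N x C57BL6 and an age of 8 weeks, grown in dishes and treated for 48 h with 50 µM N6L, a pseudopeptide antagonist of nucleolin, or left non-treated (NT). Poly(A)+ RNA of a cytoplasmic lysate and of the polysomes sedimented from the same lysate was sequenced for non-treated cultures 1, 2 and 4 and N6L cultures 1, 2 and 3, so each group holds 3 cultures of 1 line. Nothing in the labels says that the cultures were started separately, and p-values therefore measure the spread between these dishes, 3 per group. The main test of single genes pooled that spread over all 12 libraries and took the 2 fractions of a lysate as independent.

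A ribosome carries 1 copy of nearly every core protein, and most core mRNAs begin with a pyrimidine tract that ties their translation to mTOR and LARP1. Paralogs allow a ribosome to be built with another version of a protein. Rpl22l1 can take the place of Rpl22 and is held down by Rpl22 protein, which binds its RNA. RPS27L is known as a gene induced by p53, and both it and RPS27 bind the p53 ligase MDM2. Rpl7l1 belongs to the same protein family as Rpl7 and is found with precursors of the large subunit. Rpl36al arose as a retrocopy of the X-linked Rpl36a.

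The pairs differ widely in how alike they are. The Rpl36al and Rpl36a coding sequences were identical at 87.7% of bases and encode the same 106 residues. Rps27l and Rps27 shared 81 of 84 residues, Rpl22l1 and Rpl22 shared 90 of 122 aligned residues, and Rpl7l1 and Rpl7 shared 110 of 246. No stretch of 50 bases occurred both in a paralog and in its core partner, so a read of that length can be told apart within each pair. Stretches shared with other genes, mostly processed pseudogenes, made up 65.6% of the Rpl22l1 transcript, 22.4% of Rps27l, 9.19% of Rpl7l1 and 24.9% of Rpl36al, compared with 98.6% of Rps27 and 85.5% of Rpl36a. How reads that map to several places were counted is not given in the sources used here, and the levels of Rpl22l1, Rps27 and Rpl36a are uncertain to that extent. The pseudogene sharing most with Rpl22l1 held 0.147% as many counts as Rpl22l1, and the one sharing most with Rps27l held 1.12% as many as Rps27l. Genes on the opposite strand overlap Rpl22l1 (Gm33051) and Rpl7l1 (Gm26904), with 17 counts and 1 count in all 12 libraries. The strand setting of the count is likewise not given.

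The transcription starts of the paralogs are shown because a pyrimidine tract at the start marks mRNAs under mTOR control. Each line gives 30 bases around a RefSeq-annotated start (GRCm38.p6), which is base 11 of the window, and capitals mark the pyrimidine run that begins with a C within 5 bases of it. A start was counted as TOP-like where at least 4 more pyrimidines follow that C. Only the sense strand was searched.
Rpl22l1 (chr3:28805498-28805527, plus strand): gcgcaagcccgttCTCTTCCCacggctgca
Rpl22 (chr4:152325716-152325745, plus strand): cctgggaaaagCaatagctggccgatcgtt
Rps27l (chr9:66946076-66946105, plus strand): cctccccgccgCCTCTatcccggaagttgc
Rps27 (chr3:90213629-90213658, minus strand): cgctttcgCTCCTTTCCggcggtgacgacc
Rpl36al (chr12:69184048-69184077, minus strand): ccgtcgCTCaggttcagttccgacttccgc
Rpl36a (chrX:134585644-134585673, plus strand): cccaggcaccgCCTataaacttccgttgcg
Rpl7l1 (chr17:46782637-46782666, minus strand): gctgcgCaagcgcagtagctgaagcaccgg
Rpl22l1 and the first of 2 starts of Rps27l carried such a run, of 8 and 5 bases, and Rpl7l1 and Rpl36al did not. Of the core partners Rps27 carried one, of 9 bases, while Rpl22 and Rpl36a did not, and Rpl7 had no entry in the table. The letters were present at 18.3% of all 32851 starts and at 44.1% of 68 starts of the 58 core genes matched. Annotated starts can be off by several bases, and a window without the letters says nothing of the tract an mRNA carries in these cells.

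Per library the summed counts ranged from 19519911 to 44972333. Of 8 ductal marker genes 6 passed the filter, with Krt8, Krt18 and Krt19 leading and Epcam and Cldn4 near 0, and their summed level ranged from 7016 to 9662 CPM (counts per 1000000 counts of a library, here after TMM scaling of library sizes except for marker sums) over the 12 libraries. Markers of fibroblasts summed to at most 1.27 CPM, and so did those of endothelial cells. Of 8 acinar genes 5 were at 0, and Cela1 made up nearly all of their 30.1 to 76.0 CPM. Immune markers summed to 59.8 to 110.05 CPM, nearly all from Cd14, with Ptprc, which defines white blood cells, at no more than 0.0529 CPM in any group. For N6L culture 2, 3 of the cytoplasmic technical replicates carry labels that disagree on the culture number. They were kept with culture 2, from whose remaining replicate they differed by a chi-square of 1.02 to 1.04 per degree of freedom, against 12.2 to 12.4 from culture 1.

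All 4 paralogs were well expressed in mPDAC cells. Per kilobase of the main transcript and averaged over the 12 libraries, Rpl22l1 lay at the 98.5th percentile of the genes tested, Rps27l at the 98.2nd, Rpl7l1 at the 93.7th and Rpl36al at the 92.7th. In non-treated cytoplasm the levels per kilobase were 538 ± 113 CPM for Rpl22l1, 368 ± 124 for Rps27l, 87.5 ± 24.9 for Rpl36al and 86.9 ± 4.23 for Rpl7l1 (SD, n = 3). Rpl7l1 and Rpl36al did not differ beyond their spread, and the spreads of Rpl22l1 and Rps27l overlapped. Per kilobase, Rps27 was 10.6-fold above Rps27l, Rpl7 20.8-fold above Rpl7l1 and Rpl36a 20.6-fold above Rpl36al. Rpl22l1 was the exception, with Rpl22 at 0.623-fold of its level. The choice of transcript matters here, because annotated coding transcripts of Rpl22 run from 474 to 2051 bases. Over the shortest and longest transcripts of each pair the core-to-paralog ratio ranged from 0.592 to 2.69 for Rpl22 to Rpl22l1, from 7.98 to 12.8 for Rps27 to Rps27l, from 10.4 to 20.8 for Rpl7 to Rpl7l1 and from 8.50 to 20.6 for Rpl36a to Rpl36al. Which of Rpl22 and Rpl22l1 is the more abundant per length is therefore not settled, while the other 3 core mRNAs exceeded their paralogs with every transcript.

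The first comparison asks how N6L changed the amount of each mRNA in the cytoplasm. Rpl22l1, Rps27l and Rpl36al fell and Rpl7l1 did not pass the test, 3 of 4 paralogs lower at an adjusted p under 0.05 (quasi-likelihood test of edgeR, adjusted over all genes by Benjamini-Hochberg), where 13.8% of all genes tested were lower. All genes called numbered 2013 higher and 1922 lower, and 2588 and 1363 when libraries were scaled by their totals alone, which moved the median of all genes from 0.042 to 0.19. Of the 3 calls, that scaling kept Rpl22l1 and Rps27l. The median log2 fold change of the 4 was -0.89, compared with 0.042 over all genes and -0.91 over 78 core ribosomal protein genes, 76 of which were lower. Offsets for transcript length and GC content brought the median of the core genes to -0.41, with 52 called lower. A fold change compares the share of a library that an mRNA makes up, so a loss common to all mRNAs leaves no trace in it. In bulk RNA, less of an mRNA in each cell and fewer cells that carry it cannot be told apart.

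Rpl22l1 (ENSMUSG00000039221, chromosome 3 from 28805436 to 28807424) had 333, 225 and 332 CPM in non-treated cytoplasm (cultures 1, 2 and 4) and 138, 125 and 97.2 CPM in N6L cytoplasm (cultures 1, 2 and 3). Every N6L culture lay below every non-treated one. The log2 fold change was -1.31 (standard error 0.22, adjusted p = 0.00203), a level 0.404-fold of the non-treated one, and only 1 of 78 core genes had a lower value.

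Rps27l (ENSMUSG00000036781, chromosome 9 from 66946086 to 66949516) had 174, 128 and 250.1 CPM in non-treated and 78.7, 84.5 and 75.8 CPM in N6L cytoplasm. The groups did not overlap, and the non-treated cultures were much more spread than the N6L cultures. The log2 fold change was -1.21 (standard error 0.28, adjusted p = 0.00783), and 4 of 78 core genes had a lower value. Without single cultures that number ranged from 1 to 13, and that of Rpl22l1 from 0 to 7. Both calls held under each of the 16 alternatives tried for this comparison, which included DESeq2, other scalings, each culture left out and offsets for transcript length and GC content. The offsets reduced the log2 fold changes to -0.76 for Rpl22l1 and -0.68 for Rps27l, and 8 and 12 of 78 core genes then had a lower value. Rpl22 was then at -0.81, below Rpl22l1.

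Rpl36al (ENSMUSG00000049751, chromosome 12 from 69182731 to 69184083) had 82.6, 107 and 146 CPM in non-treated and 68.1, 78.9 and 76.9 CPM in N6L cytoplasm. The groups lay apart, but only by the distance from 78.9 to 82.6 CPM. The log2 fold change was -0.58 (standard error 0.21, adjusted p = 0.0493), smaller than that of most core genes, of which 71 of 78 had a lower value. This call stood at the edge of the threshold. It was lost in 11 of 16 alternatives, among them the fits without non-treated culture 2 (adjusted p = 0.0747) or 4 (0.132) and without N6L culture 1 (0.135), 2 (0.106) or 3 (0.0759), and the fit with offsets for length and GC content, where the log2 fold change was -0.28 (0.205).

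Rpl7l1 (ENSMUSG00000063888, chromosome 17 from 46773907 to 46782672) behaved differently. It had 216, 225 and 238 CPM in non-treated and 247, 253 and 252 CPM in N6L cytoplasm, the least spread values of the 4 paralogs. All N6L cultures were above all non-treated cultures, by a small margin, and the share of all genes with this order was not counted. The log2 fold change of 0.15 (standard error 0.13, adjusted p = 0.402) did not pass the test, and all 78 core genes had a lower one. Its partner Rpl7, a protein of the large subunit, was itself among the least lowered core genes, with a log2 fold change of -0.38 (adjusted p = 0.0357) that 76 of 77 other core genes exceeded in size.

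The core partners were lower in all N6L cultures than in all non-treated ones. Rpl22 fell by 0.87 (adjusted p = 0.00407), Rps27 by 1.05 (0.00369) and Rpl36a by 0.87 (0.00315) on the log2 scale. The calls of Rpl22 and Rps27 held in all 16 alternatives, that of Rpl36a was lost with the length and GC offsets (adjusted p = 0.0584), and that of Rpl7 was lost in 8 of 16, with the offsets, with library totals alone, without the filter and without any 1 of non-treated cultures 1 (0.0692), 2 (0.0937) and 4 (0.0710) or N6L cultures 1 (0.0753) and 2 (0.118). For 3 of 4 paralogs, every N6L culture lay below every non-treated culture in the cytoplasm, an order seen for 25.6% of all genes tested.

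**Figure D1:**
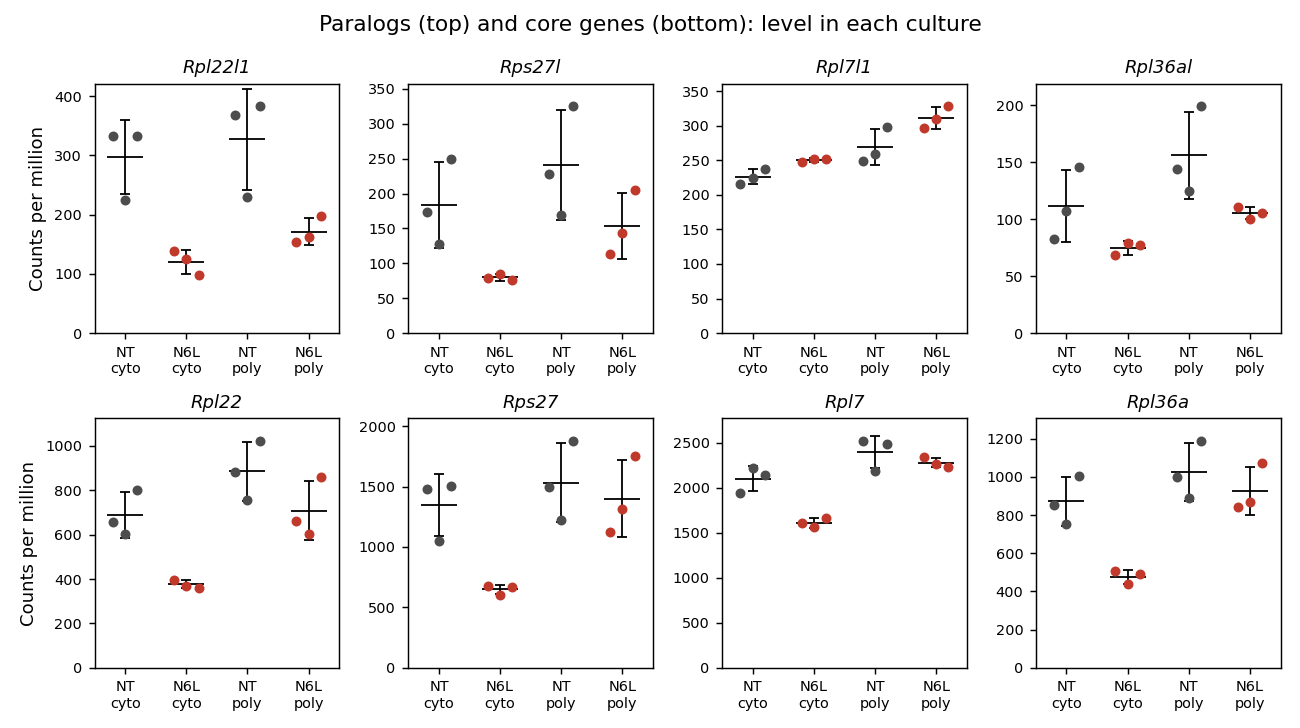
Level of each paralog (top) and its core partner (bottom) in every culture, in CPM scaled by TMM, with the mean (line) and SD (error bars, n = 3 cultures) of each group; NT is non-treated, cyto the cytoplasm and poly the polysomes. In the cytoplasm the N6L cultures (red) of Rpl22l1 lie at 97.2 to 138 CPM, below the 225 to 333 CPM of the non-treated cultures (grey), while Rpl7l1 stays between 216 and 253 CPM.

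In the polysomes the question was how much of each mRNA was engaged with several ribosomes. Rpl22l1 alone of the 4 paralogs fell at an adjusted p under 0.05, where 3.66% of all genes were lower, and none of the 4 core partners passed the test by edgeR or by DESeq2, or had an unadjusted p under 0.05 (0 of 4). Rps27l and Rpl36al reached an unadjusted p under 0.05 only, a limit that 3684 of 13889 genes passed in either direction. The median log2 fold change of the paralogs was -0.61, against -0.33 for the 78 core genes, 2 of which passed the test as lower, and 0.00081 over all genes.

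Rpl22l1 had 368, 229 and 383 CPM in non-treated polysomes and 154, 162 and 197 CPM in N6L polysomes, with no overlap. Its log2 fold change was -0.93 (standard error 0.22, adjusted p = 0.0196), and 1 of 78 core genes had a lower value. The call was lost without non-treated culture 1 (adjusted p = 0.107) or 4 (0.0847) and without N6L culture 2 (0.124), with the direction kept. It was also lost when the 2 polysome groups were fitted alone (0.0589) and with offsets for length and GC content, where the log2 fold change was -0.51 (0.0763).

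Rps27l had 228, 169 and 325 CPM in non-treated and 113, 143 and 206 CPM in N6L polysomes. The groups overlapped, since N6L culture 3 stood above non-treated culture 2. The log2 fold change of -0.65 (standard error 0.28, adjusted p = 0.150) did not pass the test.

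Rpl36al had 144, 125 and 199 CPM in non-treated and 110.3, 100.4 and 105 CPM in N6L polysomes. The groups did not overlap, and the log2 fold change was -0.56 (standard error 0.21, adjusted p = 0.0980). Its polysomal change was thus almost that of the cytoplasm, and 3 of 78 core genes had a lower one, compared with 71 in the cytoplasm. The polysomal number ranged from 1 to 28 when single cultures were left out, with 28 without N6L culture 3.

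Rpl7l1 had 249, 259 and 299 CPM in non-treated and 297, 310 and 328 CPM in N6L polysomes, with an overlap between 297 and 299 CPM. The log2 fold change was 0.21 (standard error 0.13, adjusted p = 0.314), and again all 78 core genes lay below it. With offsets for length and GC content 74 of 78 did. Among the core partners the polysomal log2 fold changes were -0.32 for Rpl22, -0.13 for Rps27, -0.073 for Rpl7 and -0.15 for Rpl36a, all with overlapping groups. The signs of the last 3 turned positive with offsets for length and GC content. Without overlap, 2 of 4 paralogs were lower in N6L polysomes, as were 11.9% of all genes.

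**Figure D2:**
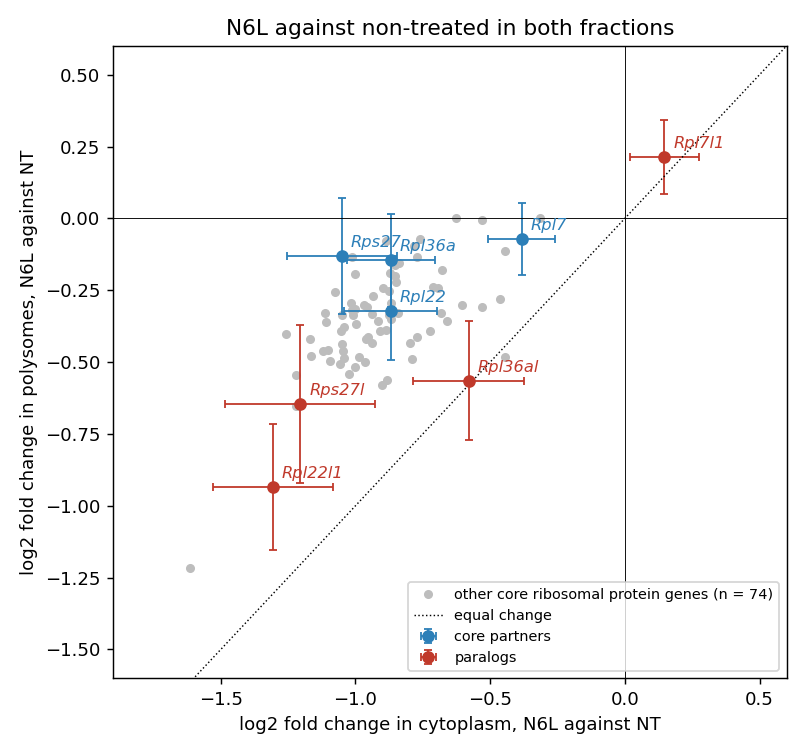
log2 fold change between N6L-treated and non-treated cultures in the cytoplasm (x axis) and in the polysomes (y axis) for the 4 paralogs (red), their core partners (blue) and the 74 other core ribosomal protein genes (grey); bars are standard errors of the edgeR fit over 12 libraries and the dotted line marks equal change. Core partners lie above the line, Rpl36al (-0.58 and -0.56) on it, Rpl22l1 (-1.31 and -0.93) at the lower left and Rpl7l1 (0.15 and 0.21) at the upper right.

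The ratio of a paralog to its core partner within 1 library does not depend on how libraries are scaled, and it tells how the mRNAs of a pair are balanced. The ratios below are of raw counts and are compared between libraries only, not as levels. In the polysomes, the ratio was lower in every N6L culture than in every non-treated culture for Rpl22l1, Rps27l and Rpl36al, and higher for Rpl7l1. With 3 cultures against 3 the exact two-sided permutation test gives no p below 0.1, which each of these 4 differences had, and 0.15 after Benjamini-Hochberg adjustment over the 12 ratio tests. How often other pairs of genes lie apart in this way was not counted. With offsets for length and GC content, the polysomal ratios of Rpl36al alone stayed apart.

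Rpl22l1 counts were 41.9%, 30.4% and 37.5% of the Rpl22 counts in non-treated polysomes and 23.3%, 26.8% and 22.9% in N6L polysomes. The log2 ratio went from -1.46 ± 0.24 to -2.04 ± 0.12 (SD, n = 3 each), a difference of -0.58 (exact permutation test, p = 0.1). In the cytoplasm the shares were 50.7%, 37.4% and 41.5% without and 34.8%, 33.7% and 26.9% with N6L, a log2 difference of -0.44 (exact permutation test, p = 0.1, adjusted 0.15), again without overlap. With offsets for length and GC content the cytoplasmic difference was 0.027 (exact permutation test, p = 0.7) and the polysomal one -0.19 (p = 0.3), both with overlap. These offsets rest on a transcript of 2051 bases for Rpl22.

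Rps27l counts were 15.2%, 13.9% and 17.3% of those of Rps27 in non-treated polysomes and 10.02%, 10.8% and 11.7% in N6L polysomes. The log2 ratio differed by -0.51 (from -2.70 ± 0.16 to -3.21 ± 0.11, SD, n = 3, exact permutation test, p = 0.1). In the cytoplasm the ratios overlapped, with a difference of -0.12 (exact permutation test, p = 0.5), and the difference was 0.040 without non-treated culture 4. With offsets for length and GC content the differences were -0.20 in the cytoplasm (exact permutation test, p = 0.6) and -0.46 in the polysomes (p = 0.3), both with overlap.

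Rpl36al and Rpl36a encode the same protein. Rpl36al counts were 14.4%, 14.04% and 16.7% of those of Rpl36a in non-treated polysomes and 13.1%, 11.6% and 9.85% in N6L polysomes. The log2 ratio differed by -0.39 (from -2.74 ± 0.14 to -3.13 ± 0.20, SD, n = 3, exact permutation test, p = 0.1). In the cytoplasm the ratio went the other way, with a difference of 0.32 and overlapping cultures (exact permutation test, p = 0.3). With offsets for length and GC content the differences were 0.10 in the cytoplasm (exact permutation test, p = 0.8) and -0.67 in the polysomes (p = 0.1).

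Rpl7l1 counts were 11.1%, 10.1% and 11.1% of those of Rpl7 in non-treated cytoplasm and 15.4%, 16.2% and 15.1% in N6L cytoplasm. This log2 difference of 0.53 (from -3.21 ± 0.078 to -2.68 ± 0.051, SD, n = 3, exact permutation test, p = 0.1) was several times the spread of either group. In the polysomes the shares went from 9.88%, 11.9% and 12.03% to 12.7%, 13.7% and 14.7%, a log2 difference of 0.29 (exact permutation test, p = 0.1). With offsets for length and GC content the differences were 0.18 (exact permutation test, p = 0.3) and 0.038 (p = 0.8), both with overlap.

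When the geometric mean of the 78 core genes replaced the core partner, a choice made after the data were seen, the polysomal differences were -0.57 for Rpl22l1, -0.30 for Rps27l, 0.55 for Rpl7l1 and -0.20 for Rpl36al. The cultures then lay apart for Rpl22l1 and Rpl7l1 (exact permutation test, p = 0.1) but overlapped for Rps27l (p = 0.3) and Rpl36al (p = 0.5). The polysomal separation of Rps27l and Rpl36al thus depended on the core gene it was set against.

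**Figure D3:**
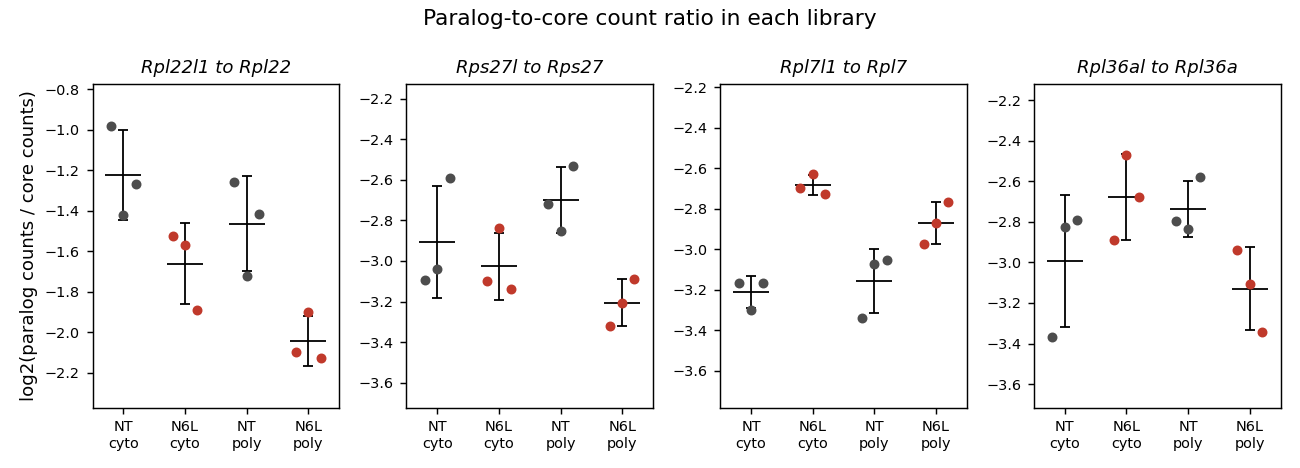
log2 ratio of paralog to core counts in each library, with the mean (line) and SD (error bars, n = 3) of non-treated (grey) and N6L (red) cultures in the cytoplasm (cyto) and the polysomes (poly); each panel has its own range of 1.6 log2 units. In the polysomes the N6L cultures lie below the non-treated ones for Rpl22l1, Rps27l and Rpl36al and above them for Rpl7l1.

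The polysome-to-cytoplasm ratio of a culture describes how an mRNA is loaded onto polysomes, relative to other mRNAs. In non-treated cells none of the paralogs passed the test between polysomes and cytoplasm by edgeR or DESeq2 (0 of 4, and 0.209% of all genes by edgeR). At an unadjusted p under 0.05, 1 of 4 passed, as did 1855 of 13889 genes. The log2 ratios of the paralogs were 0.12 ± 0.090 for Rpl22l1, 0.39 ± 0.015 for Rps27l, 0.25 ± 0.071 for Rpl7l1 and 0.49 ± 0.29 for Rpl36al (SD, n = 3).

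In N6L-treated cells Rps27l was higher in the polysomes than in the cytoplasm (log2 fold change 0.95, standard error 0.28, adjusted p = 0.0170), 1 of 4 paralogs, while 18.4% of all genes were higher. All 4 core partners passed this test, from 0.50 for Rpl7 to 1.11 for Rps27, with 72 of the 78 core genes (19 with offsets for length and GC content). When the 2 libraries of each lysate were paired by taking the culture as a block, 4 of 4 paralogs were higher, compared with 26.1% of all genes. The paired log2 differences were 0.52 for Rpl22l1 (adjusted p = 0.0192), 0.91 for Rps27l (0.00237), 0.31 for Rpl7l1 (0.0188) and 0.50 for Rpl36al (0.0111). With offsets for length and GC content added to the block, 2 of 4 were called, Rps27l at 0.68 (adjusted p = 0.0228) and Rpl7l1 at 0.28 (0.0214). In that fit 1911 of 13889 genes were called higher. The calls of Rpl22l1 (0.48, adjusted p = 0.0656) and Rpl36al (0.070, 0.681) were then lost. Each paralog and each core partner was higher in the polysomes than in the cytoplasm of all 3 N6L cultures. In the non-treated cultures the same held for each paralog and for Rpl22, Rps27 and Rpl36a, but not for Rpl7 (-0.021 in culture 2). The share of all genes with this order was not counted. Among the N6L cultures the amount was largest in culture 3 for Rpl22l1 (0.16, 0.38 and 1.02 in cultures 1, 2 and 3) and Rps27l (0.52, 0.76 and 1.44). Without culture 3 the unpaired call of Rps27l was lost (0.65, adjusted p = 0.176), and without culture 2 as well (1.07, adjusted p = 0.0658), leaving 0 of 4 called. Over all genes 436 and 359 were then called higher. Without non-treated culture 2 or 4 (the fit estimates 1 spread over all groups), 2 and 3 of 4 were called. Over all genes 2212 and 2964 were then called higher.

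The log2 translational index (TI) is the polysome-to-cytoplasm log2 ratio of N6L cultures minus that of non-treated cultures. None of the 4 paralogs passed the test for a changed TI (0 of 4 by edgeR, by DESeq2 and at an unadjusted p under 0.05). None of the 4 core partners passed (0 of 4 by both), as for all genes (0%). An unadjusted p under 0.05 was reached by 3 of 4 core partners and by 1074 of 13889 genes. The TI was 0.37 for Rpl22l1 (standard error 0.31), 0.56 for Rps27l (0.39), 0.066 for Rpl7l1 (0.18) and 0.016 for Rpl36al (0.29), compared with a median of 0.59 over the 78 core genes (0.24 with offsets for length and GC content) and 0.0079 over all genes. That of Rpl36al was below 0 in 7 of 16 alternatives. For Rpl7l1 and Rpl36al 1 of 78 core genes lay lower, for Rpl22l1 15 and for Rps27l 36. With the offsets these counts were 14 for Rpl7l1, 0 for Rpl36al, 41 for Rpl22l1 and 65 for Rps27l.

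The core partners had TIs of 0.55 for Rpl22, 0.92 for Rps27, 0.31 for Rpl7 and 0.72 for Rpl36a, which made Rps27 the highest of the 78. For each of these 4, all N6L cultures had a higher ratio than all non-treated cultures, but of the paralogs this held for Rps27l only, 1 of 4, and for 15.3% of all genes. The polysome-to-cytoplasm log2 ratio of Rpl36a was 0.23 ± 0.0069 in non-treated and 0.95 ± 0.19 in N6L cultures, whereas that of Rpl36al was 0.49 ± 0.29 and 0.50 ± 0.18 (SD, n = 3 each). The difference in TI between the 2 genes, from the paralog-to-core ratios, was -0.71 (exact permutation test, p = 0.1, adjusted 0.15) without overlap. Cultures of this pair overlapped with offsets for length and GC content (-0.77, exact permutation test, p = 0.2) and with the mean of the 78 core genes as denominator (-0.54, p = 0.2). For Rps27l and Rps27 the difference was -0.39 (exact permutation test, p = 0.1), also without overlap. It was -0.26 (p = 0.4) with the offsets and -0.032 (p = 0.8) with the mean of the core genes, with overlap in both (exact permutation tests). For Rpl7l1 and Rpl7 it was -0.24 (exact permutation test, p = 0.2), and -0.48 without overlap (p = 0.1) with the mean of the core genes. For Rpl22l1 and Rpl22 it was -0.14 (exact permutation test, p = 0.4).

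**Figure D4:**
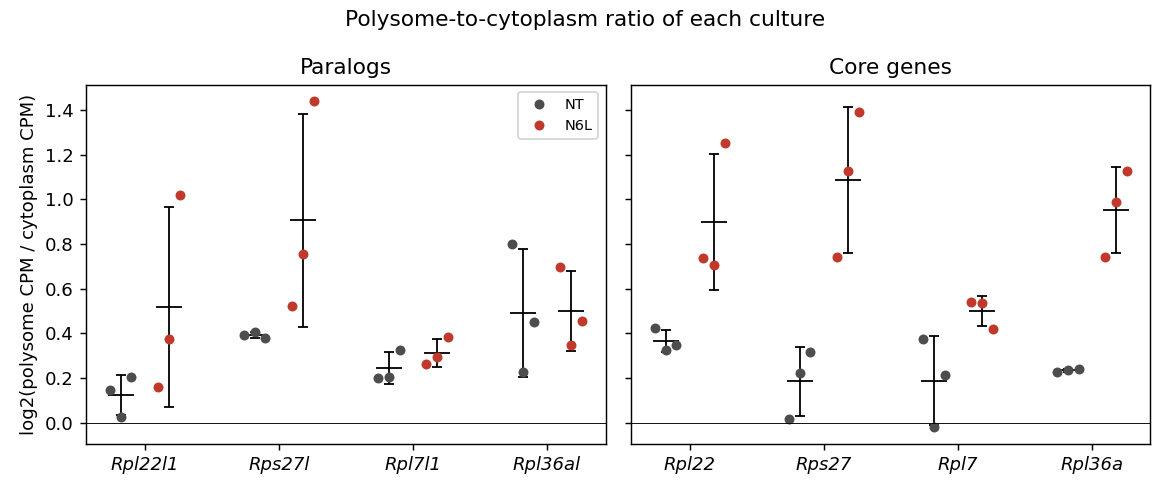
log2 ratio of polysomal to cytoplasmic CPM in each culture for the paralogs (left) and core partners (right), with the mean (line) and SD (error bars, n = 3) of non-treated (grey) and N6L (red) cultures. The N6L cultures of Rpl36a lie at 0.74 to 1.12, above the non-treated ones at 0.23 to 0.24, while those of Rpl36al overlap.

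Other paralogs of ribosomal proteins were hardly detected. Rpl3l, Rpl10l, Rpl39l and Rps4l, known mostly from muscle or testis, had 27, 1, 5 and 0 counts over all 12 libraries. Rps27rt, which shares 292 of 296 stretches of 50 bases with Rps27, and Rpl9-ps6 passed the filter and were lower in N6L cytoplasm, with log2 fold changes of -2.67 and -2.0, at a level of at most 8.49 CPM in any group.

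Genes around the known roles of the paralogs moved in different directions. Of 20 p53 targets, 19 were tested, and 6 were higher and 4 lower in N6L cytoplasm, with a median log2 fold change of 0.074. Over all genes 14.5% were higher and 13.8% lower. They ranged from -0.98 for Bax, which promotes apoptosis, to 2.31 for Btg2, which restrains cell division. In the polysomes 3 were higher and 1 lower, where 6.01% of all genes were higher and 3.66% lower. Of 42 factors that build the large subunit, 9 were lower in the cytoplasm and 6 in the polysomes and 0 higher in either (edgeR), with medians of -0.22 and -0.33, where 13.8% and 3.66% of all genes were lower. Lyar, a nucleolar factor of pre-ribosome assembly, had the lowest values in both fractions (-0.96 and -1.25).

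The genes whose levels followed each paralog most closely over the 12 libraries were not ribosomal protein genes. After each gene was centred on its mean, the root mean square difference to Rpl22l1 was smallest for 2810025M15Rik (0.14 log2 units), Ndufaf2 (0.17) and Hspe1 (0.17). Ndufaf2 and Hspe1 act in mitochondria, Ndufaf2 in the assembly of respiratory complex I and Hspe1 in protein folding. Rps27l was nearest to Cavin3 (0.084), Dtymk (0.089) and Serp2 (0.097), and Rpl36al to Eny2 (0.096), Exosc7 (0.12) and Ndufaf5 (0.12). For Rpl7l1, which varied little, the nearest were Bpgm (0.066), Eepd1 (0.069) and Mkrn1 (0.081). Of 8959 genes averaging 10 CPM or more, the core partner ranked 386th for Rpl22l1, 263rd for Rps27l, 1543rd for Rpl7l1 and 635th for Rpl36al. The median difference to all genes was 0.71, 0.73, 0.38 and 0.52 for Rpl22l1, Rps27l, Rpl7l1 and Rpl36al.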

How the data were processed

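Per the methods and the submitters' processing notes, the authors aligned reads of stranded poly(A)+ libraries with STAR (genome build mm10) and counted them per gene with HTSeq 0.5.3. The deposited values are raw counts without normalization, 4 technical replicates per library for 12 libraries. The annotation release, strand setting and treatment of multimapping reads: not given in the sources used here. Technical replicates were summed (chi-square per degree of freedom 1.02 to 1.05). Groups follow the labels.

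Symbols, coordinates and transcripts were taken from GENCODE vM21 (50376 of 50600 genes matched). Counts were filtered with filterByExpr, scaled by TMM and tested by the quasi-likelihood fit of edgeR 4.0.16 (R 4.3.3, 1 mean per fraction and treatment, no block), with Benjamini-Hochberg adjustment and a limit of 0.05. The fit was tested on simulated counts. Ratios of paralog to core counts (0.5 added) were compared by exact two-sided permutation tests (scipy 1.17.1). Cytoplasmic and polysomal libraries of 1 culture share a lysate and are thereby paired (correlation of their deviations from group means, 0.0368 to 0.645). Alternatives were the culture as a block, DESeq2 1.42.0, other scalings and filters, technical replicate a alone, libraries left out, fits of the compared groups alone and offsets for transcript length and GC content. The genes named are the 4 paralogs, their core partners, the ends of each list's range, and the 3 genes nearest to each paralog. Genes of the marker lists, of the other paralogs and those overlapping in sequence were named after their values were seen. The members and lists were chosen with earlier results of these data known. The smallest library held 19519911 counts, and the spread between cultures, with a biological coefficient of variation of 0.197, limits the precision more than counting does.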

Additional observations from a re-analysis of the deposited data

How the results depend on the processing

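In the cytoplasm the number of paralogs called stayed at 2 or 3 under all 16 alternatives, and Rpl22l1 and Rps27l were called in each. Over all genes, 732 to 2863 were called lower. In the polysomes, where 1 paralog was called, leaving out single cultures gave 0 to 1, no filter on low counts 2 (Rpl22l1 and Rps27l), and 0 resulted from offsets for length and GC content and from fitting only the groups compared. Genes called lower numbered 17 to 695 without single cultures, 686 without the filter, 1468 with the offsets and 70 with only the groups compared. Between polysomes and cytoplasm of N6L-treated cells, where 1 was called, the number was 4 with the culture as replicate block and 2 with the block and the offsets together. It was 2 with RLE size factors, 2 without the filter, 2 with technical replicate a alone, 2 with only the groups compared and 3 with DESeq2, and 0 to 3 without single cultures. Genes called higher numbered 3622 with the block, 1911 with block and offsets, 2754 with RLE size factors and 2294 without the filter. They numbered 2326 with technical replicate a, 1965 with only the groups compared, 3117 with DESeq2 and 359 to 2964 without single cultures. No paralog was called in non-treated cells or for the TI under any alternative run. In non-treated cells these fits called 0 to 647 genes in all. For the TI they called 114 genes without the filter, 1 without N6L culture 1 and none otherwise. The absence of TI calls is therefore not particular to the paralogs. The block by label number in the cytoplasm and polysomes called 2 and 1, where 2224 and 524 genes were lower. The block by culture changed no other count. For the comparisons of treatments, the labels do not say whether same-numbered cultures were paired. Same-numbered libraries of the 2 treatments correlated by 0.00756 to 0.296.

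Of the paralog-to-core differences, 2 changed sign, both in the cytoplasm. That of Rpl22l1 to Rpl22 was 0.027 with offsets for length and GC content, and that of Rps27l to Rps27 ranged from -0.21 to 0.040 without single cultures. Among single genes, the TI of Rpl36al was -0.041 with library totals alone, -0.022 without the filter, -0.066 with technical replicate a alone, -0.18 with the offsets and -0.19 with offsets and block, and ranged from -0.090 to 0.14 without single cultures. In the polysomes Rpl7 was at 0.015 with library totals alone, and with the offsets Rps27 was at 0.21, Rpl7 at 0.13 and Rpl36a at 0.23. Rps27 ranged from -0.33 to 0.049 without single cultures. In non-treated cells the polysome-to-cytoplasm difference of Rps27 was -0.12 with the offsets and -0.10 with offsets and block. The causes were not tested. Technical replicate a alone, the left-out replicates with conflicting labels, pseudogene copies added to the core gene and the mean of all core genes as denominator reversed none of the paralog-to-core differences.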
